A study of Bos taurus with 8 samples.

Results

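The genes described are those of the aggrecan network of cartilage: the proteoglycans *Acan* (aggrecan) and *Vcan* (versican), the link proteins *Hapln1* and *Hapln3*, the matrilins *Matn1*, *Matn2*, *Matn3* and *Matn4*, and the proteoglycans *Hspg2* (perlecan) and *Snorc*. They were taken by name from a table of 24596 bovine genes, and all 10 were found there, under the symbols ACAN, VCAN, HAPLN1, HAPLN3, MATN1, MATN2, MATN3, MATN4, HSPG2 and SNORC. RNA-Seq had been performed on chondrocytes of the superficial zone (SZCs) and of the deep zone (DZCs) of articular cartilage, to find genes that distinguish the superficial zone. Both groups were wild type cells from knee joints of calves 1 to 2 weeks old, grown for 3 days in DMEM/F12 with 10% FBS, and each had 2 libraries. The zones were separated by slicing cores of cartilage, with the middle zone discarded, and all slices of a zone from a joint were kept together, so each library is a mixture of the cells in its slices. The libraries are described in the study as biological duplicates, but the labels do not say whether they came from different animals, so the tests measure only the spread between these libraries.

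Aggrecan carries many chondroitin sulfate chains and binds hyaluronan, and link protein locks this bond, which builds the water-holding aggregates that let cartilage resist compression. Versican has the same plan and also binds hyaluronan and link protein, but is known mainly from early, loose and fibrous matrix. Matrilins are adaptor proteins that connect collagen fibrils and proteoglycans, perlecan surrounds chondrocytes in the pericellular matrix and is a component of basement membranes, and Snorc is a small transmembrane proteoglycan of chondrocytes. *Matn1* is best known from epiphyseal cartilage that will be replaced by bone, and mutations of *Matn3* cause chondrodysplasia.

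Library totals lay between 19918970 and 21890549 counts. Levels are given in CPM, counts relative to the size of the library after scaling by the trimmed mean of *M* values (TMM) of edgeR. A level below 3 counts, or 0.129 to 0.187 CPM, was treated as not detectable. *Prg4* (lubricin), which marks the superficial zone, was at 3166 and 2024 CPM in SZCs and 15.3 and 61.5 CPM in DZCs. All 5 superficial zone markers checked were called higher in SZCs by the exact test of edgeR (FDR below 0.05). Among them were *Epha3*, *Vit* and *Wif1*, of which *Wif1* was not called by DESeq2 (FDR 0.053). The study names these markers as higher in SZCs from the same libraries, so the calls are not an independent check of the zones. All 9 markers of chondrocytes that were checked, such as *Col2a1* and *Sox9*, were present in every library. Their summed level was 109927 and 104805 CPM in SZCs and 484490 and 186189 CPM in DZCs. Markers of endothelial cells, such as *Vwf*, summed to at most 12.5 CPM in any library and those of immune cells, such as *Cd14*, to at most 30.2 CPM. The 6 markers of pericytes and smooth muscle summed to 2555 and 2131 CPM in SZCs and 2423 and 2016 CPM in DZCs, of which *Cspg4* held 2533, 2011, 2364 and 1690 CPM. *Acta2* (smooth muscle actin) was at 11.5 and 93.2 CPM in SZCs and 53.2 and 311 CPM in DZCs, and 0 of these 6 markers passed. The DZC libraries stood further apart than the SZC libraries. Of 12857 genes tested, 19.8% differed at least 2-fold between the DZC replicates, against 4.37% between the SZC replicates.

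All 10 genes passed edgeR's filter on low counts and were compared between the zones with the exact test of edgeR, in which a gene was called at a Benjamini–Hochberg false discovery rate (FDR) below 0.05. *Vcan* was higher in SZCs, *Matn3* was higher in DZCs, and the other 8 genes did not pass. The 2 called genes of 10 compare with 2.93% of all genes tested. Split by direction, 2.23% of all tested genes were called higher in SZCs and 0.700% higher in DZCs, and 1 gene described here fell in each class. DESeq2 also called 2 of the 10 genes, where it called 3.09% of all genes (2.25% higher in SZCs and 0.840% higher in DZCs). Without DZC replicate 1, 4 of the 10 genes were called against 6.68% of all genes, and without DZC replicate 2, 5 of the 10 against 21.5%. In such fits the zone left with 1 library was assumed to vary like the other zone. These calls thus ignore the spread between the DZC replicates. The median log2 fold change of SZCs over DZCs was -0.15 over the 10 genes and -0.04 over all genes tested. TMM-scaled levels of the zones did not overlap for 3 of the 10 genes, *Vcan*, *Matn3* and *Hspg2*. In raw counts the zones overlapped for *Hspg2*. Of all genes tested, 41.5% had no overlap in scaled levels (21.0% higher in SZCs, as *Vcan*, and 20.5% higher in DZCs, as *Matn3* and *Hspg2*). Exon lengths were not used here, so levels are compared between libraries for each gene and not between genes.

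**Figure D1:**
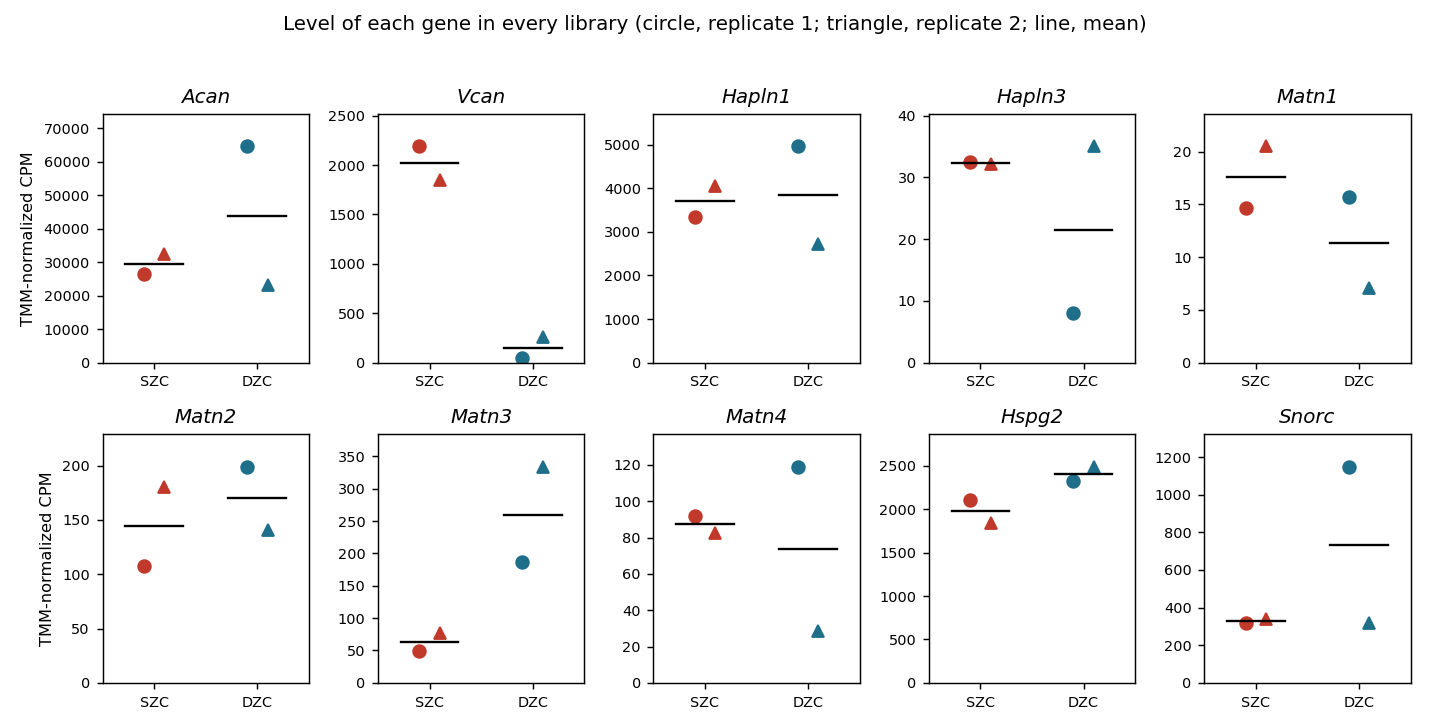
Level of each of the 10 genes in TMM-normalized CPM (vertical axis, from 0 and with its own scale for each gene) in the SZC (red) and DZC (blue) libraries; circles are replicate 1, triangles replicate 2 and black lines zone means. *Vcan* separates the zones with SZC values of 2188 and 1844 CPM, *Matn3* separates them the other way, and for *Acan*, *Matn4* and *Snorc* the DZC circle lies well above the DZC triangle.

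*Vcan* (ENSBTAG00000014906), the large proteoglycan of loose and provisional matrix, showed the widest difference between the zones among the 10 genes. Its counts were 48151 and 42798 in SZCs and 711 and 5718 in DZCs. Its level was 2188 and 1844 CPM in SZCs and 44.2 and 256 CPM in DZCs. Both SZC values lay far above both DZC values, and the DZC values themselves were 5.79-fold apart. On average *Vcan* was 13.4-fold higher in SZCs, a log2 fold change of 3.75 with a standard error of 0.78 and an FDR of 0.00211 in the exact test of edgeR. Without DZC replicate 2 it was 5.53, and without DZC replicate 1 it was 2.98. In edgeR's quasi-likelihood test, which called 0 genes of the whole table and 1126 at an unadjusted p-value below 0.05, its FDR was 0.291.

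Markers of fibroblasts and the synovial lining moved partly with *Vcan*. The 7 markers summed to 16997 and 25190 CPM in SZCs and to 4419 and 14137 CPM in DZCs, and none of the 7, which include *Col3a1*, was at 0 in any library. By edgeR's exact test 0 of these 7 genes passed, and 5 of the 7 had a positive log2 fold change. Like *Vcan*, 6 of the 7 were lower in DZC replicate 1 than in DZC replicate 2. Their part in the difference of *Vcan* was not tested. In libraries made from many cells, fewer cells that express a gene and less RNA per cell cannot be told apart.

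*Acan* (ENSBTAG00000016158), the main proteoglycan of cartilage, took 2.93% of all counts in SZC replicate 1 (95% Wilson interval 2.92% to 2.94%) and 3.68% in SZC replicate 2 (3.67% to 3.69%). The DZC libraries gave it 4.74% (4.73% to 4.75%) for replicate 1 and 2.53% (2.52% to 2.53%) for replicate 2. Only counting error enters such intervals, and reads copied in amplification do not count separate molecules. Its level was 26525 and 32369 CPM in SZCs and 64599 and 23329 CPM in DZCs. The DZC libraries thus held both the highest and the lowest *Acan* level, and the zones overlapped. The log2 fold change was -0.58 (standard error 0.59, 95% interval -1.73 to 0.57, FDR 0.966 by edgeR's exact test). A difference of *Acan* between the zones was not detectable with these libraries. The value depended on which DZC library was kept, being 0.34 without DZC replicate 1 and -1.11 without DZC replicate 2.

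The link proteins differed from each other in how they varied. *Hapln1* (ENSBTAG00000012411), the link protein of cartilage aggregates, was at 3330 and 4061 CPM in SZCs and 4956 and 2726 CPM in DZCs, so that the zones overlapped. Its log2 fold change was -0.06 (standard error 0.47, 95% interval -0.97 to 0.86, FDR 1 by edgeR's exact test), with no difference detectable. Relative to the median gene *Hapln1* was at -0.02 under TMM, 0.07 with library totals and 0.04 with totals outside *Col2a1*. *Hapln3* (ENSBTAG00000001740), a link protein of wider distribution, was at 32.5 and 32.1 CPM in SZCs and 8.09 and 35.0 CPM in DZCs. Only DZC replicate 1 stood apart for *Hapln3*, with 130 counts against 715 to 781 in the other 3 libraries. The log2 fold change of *Hapln3* was 0.58 (standard error 0.68, 95% interval -0.75 to 1.92, FDR 0.987 by edgeR's exact test). It was 2.02 without DZC replicate 2 and -0.11 without DZC replicate 1.

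Both link proteins lie beside a hyaluronan-binding proteoglycan in the genome. In the order of protein-coding genes of the RefSeq annotation of assembly ARS-UCD2.0, which is not the build of the counts, *Hapln3* lies next to *Acan* and *Hapln1* next to *Vcan*. The neighbours did not share a pattern over the libraries. Between DZC replicates 1 and 2, the level of *Acan* was 2.77-fold higher in replicate 1, whereas that of its neighbour *Hapln3* was 4.33-fold higher in replicate 2. *Hapln1* was 1.82-fold higher in DZC replicate 1, whereas its neighbour *Vcan* was 5.79-fold higher in DZC replicate 2. *Ncan*, *Bcan*, *Hapln2* and *Hapln4*, the brain members of these families, did not pass the filter. None of these 4 genes had more than 2 counts in any library, and *Ncan* had 0 in all.

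Among the matrilins, *Matn3* (ENSBTAG00000020893), a matrilin of growth cartilage, was higher in DZCs. Its counts were 1067 and 1798 in SZCs and 2991 and 7441 in DZCs. Its level was 48.5 and 77.5 CPM in SZCs and 186 and 334 CPM in DZCs. Each DZC value exceeded both SZC values, and the lowest DZC value was that of replicate 1. On average *Matn3* was 4.13-fold higher in DZCs, a log2 fold change of -2.04 with a standard error of 0.46 and an FDR of 0.00212 in the exact test of edgeR. Its log2 fold change was -1.75 without SZC replicate 1 and -2.42 without SZC replicate 2, and *Matn3* was called in neither fit. The spread in these fits came from the DZC libraries alone, and fewer genes of the whole table were called. Several markers were also called higher in DZCs, namely *Cnmd* (chondromodulin, log2 fold change -2.94, FDR 0.000917) and *Chad* (chondroadherin, -1.92, FDR 0.0373) of the 9 chondrocyte markers, and *Ihh* (Indian hedgehog, a signal of prehypertrophic chondrocytes, -4.12, FDR 0.016) of 5 tested hypertrophic and bone markers, all in edgeR's exact test. The median log2 fold change of the chondrocyte list was -1.37. The 10 hypertrophic and bone markers summed to 113 and 110 CPM in SZCs and to 35.2 and 274 CPM in DZCs, so the DZC libraries lay on either side of the SZC libraries. *Ihh* was at 0.591 and 0.215 CPM in SZCs and 12.1 and 2.15 CPM in DZCs, so it was higher in DZC replicate 1, whereas *Matn3* was higher in replicate 2. Without SZC replicate 1 none of these 3 calls was kept (FDR 0.254, 1 and 0.178), and those of *Cnmd* and *Ihh* were also lost without SZC replicate 2 (FDR 0.0806 and 0.433). That of *Chad* was lost with library totals (FDR 0.247). Without DZC replicate 1 the value of *Ihh* was -2.41. The part of these cell states in the difference of *Matn3* was not tested. For *Matn3*, scaling by library totals gave -1.81 (FDR 0.109), and the quasi-likelihood test of edgeR gave an FDR of 0.244.

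The other 3 matrilins did not pass. *Matn1* (ENSBTAG00000003479), the matrilin of epiphyseal cartilage, was at 14.7 and 20.5 CPM in SZCs and 15.7 and 7.08 CPM in DZCs. The zones overlapped, and the log2 fold change of *Matn1* was 0.63 (standard error 0.53, 95% interval -0.41 to 1.68, FDR 0.918 by edgeR's exact test). It was 1.32 without DZC replicate 1 and 0.19 without DZC replicate 2. *Matn2* (ENSBTAG00000017165), the matrilin with the widest distribution outside cartilage, was at 108 and 180 CPM in SZCs and 199 and 141 CPM in DZCs. Its log2 fold change was -0.24 with a standard error of 0.43. Relative to the median gene it was -0.20 under TMM and -0.14 under library totals. The zones overlapped here as well, and the SZC replicates were 1.66-fold apart, the widest gap between SZC replicates among the 10 genes. *Matn4* (ENSBTAG00000011279) was at 91.8 and 82.7 CPM in SZCs and 119 and 28.4 CPM in DZCs. Its DZC values lay on either side of the SZC values. Its log2 fold change of 0.24 (standard error 0.67) was 1.62 without DZC replicate 1 and -0.43 without DZC replicate 2.

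*Hspg2* (ENSBTAG00000017122), whose product perlecan forms the shell around each chondrocyte, was the steadiest of the 10 genes between DZC replicates in TMM-scaled levels. It was at 2111 and 1840 CPM in SZCs and 2331 and 2492 CPM in DZCs. Both DZC values were slightly above the SZC values, by a log2 fold change of -0.29 (standard error 0.38, 95% interval -1.04 to 0.46, FDR 0.995 by edgeR's exact test). In raw counts neither held, as *Hspg2* had 46457 and 42711 counts in SZCs and 37465 and 55602 in DZCs. The DZC counts of *Matn2*, 3199 and 3152, lay closer together. Set against the median of all genes tested, the value of *Hspg2* was -0.25 under TMM and equally under library totals, which raised the median by 0.30. *Snorc* (ENSBTAG00000018058) was at 319 and 339 CPM in SZCs and 1149 and 319 CPM in DZCs. DZC replicate 1 stood apart from the other 3 libraries, which were nearly alike. The log2 fold change of *Snorc* was -1.16 (standard error 0.63, 95% interval -2.40 to 0.08, FDR 0.658 by edgeR's exact test). It was -1.78 without DZC replicate 2 and 0.05 without DZC replicate 1.

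**Figure D2:**
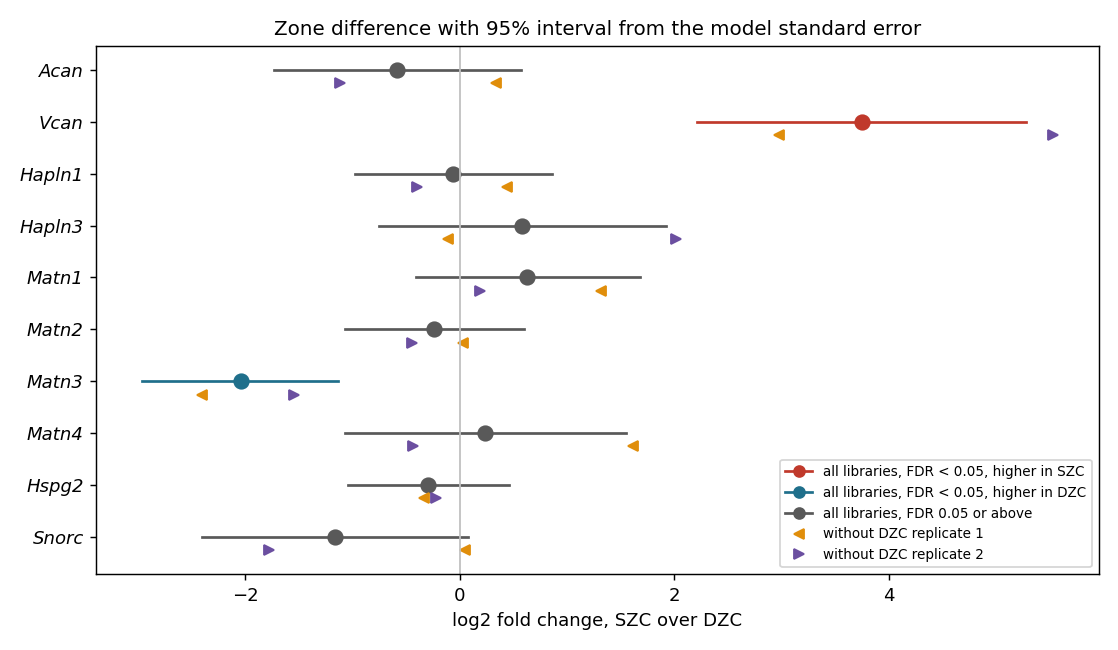
Log2 fold change of SZCs over DZCs (horizontal axis) for the 10 genes; dots are values with all libraries, bars are 95% intervals from the model's standard error, and triangles are values with one DZC library left out. The intervals of *Vcan* and *Matn3* do not reach 0, and for *Acan*, *Hapln1*, *Hapln3*, *Matn2*, *Matn4* and *Snorc* the triangles lie on both sides of 0.

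Because the counts were made without regard to strand, reads of overlapping genes cannot be separated. In the same RefSeq annotation 7 of the 10 genes overlap another gene, and 3 of these overlapping genes were found by name in the count table. *Ngef*, which overlaps *Snorc*, was counted 4986, 4171, 4481 and 4619 times in SZC replicates 1 and 2 and DZC replicates 1 and 2, which is 227, 180, 279 and 207 CPM. The part of such reads in the levels of the genes described was not tested. *Laptm5*, which overlaps *Matn1*, was counted 264, 233, 97 and 210 times in the same order, which is of the same size as the 158 to 476 counts of *Matn1*. *Rbpjl*, which overlaps *Matn4*, was counted 31 to 56 times.

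Between replicates of a zone, TMM-scaled levels of 8 of the 10 genes lay closer in SZCs than in DZCs. The exceptions were *Hspg2* and *Matn2*. The SZC replicates differed by 1.01-fold (*Hapln3*) to 1.66-fold (*Matn2*), with a median of 1.21-fold, and 0 of the 10 genes were at least 2-fold apart, where the share over all genes tested was 4.37%. The DZC replicates differed by 1.07-fold (*Hspg2*) to 5.79-fold (*Vcan*), with a median of 2.49-fold. Over all genes tested the median was 1.17-fold in SZCs and 1.43-fold in DZCs, with 0.5 CPM added so that genes at 0 could enter. Of the 10 genes, 6 were at least 2-fold apart between the DZC replicates, where the share over all genes was 19.8%. Of these 6, 4 were higher in replicate 1 and 2 in replicate 2, against 6.32% and 13.5% of all genes. In TMM-scaled levels the genes fell on both sides. *Acan*, *Hapln1*, *Matn1*, *Matn2*, *Matn4* and *Snorc* were higher in DZC replicate 1, and *Vcan*, *Hapln3*, *Matn3* and *Hspg2* were higher in DZC replicate 2. For *Matn2* the DZC counts before scaling were nearly equal, at 3199 and 3152. With *Matn4*, 119 against 28.4 CPM, and *Vcan*, 44.2 against 256 CPM, as the extremes, the differences reached 4.21-fold in one direction and 5.79-fold in the other.

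Other marker genes separated the DZC replicates as well. In TMM-scaled levels all 9 chondrocyte markers were higher in DZC replicate 1, among them *Col2a1* with 333205 against 118929 CPM. In raw counts *Chad* was lower there (4694 against 5997). Of the 7 fibroblast and synovial markers, 6 were higher in DZC replicate 2, and 7 of 10 hypertrophic and bone markers were too. The bone markers *Mmp13* and *Ibsp* were at 0 in DZC replicate 1 and at 21.0 and 12.0 CPM in DZC replicate 2. No label separates the 2 DZC libraries, and the part of these cell types in the levels of the 10 genes was not tested.

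**Figure D3:**
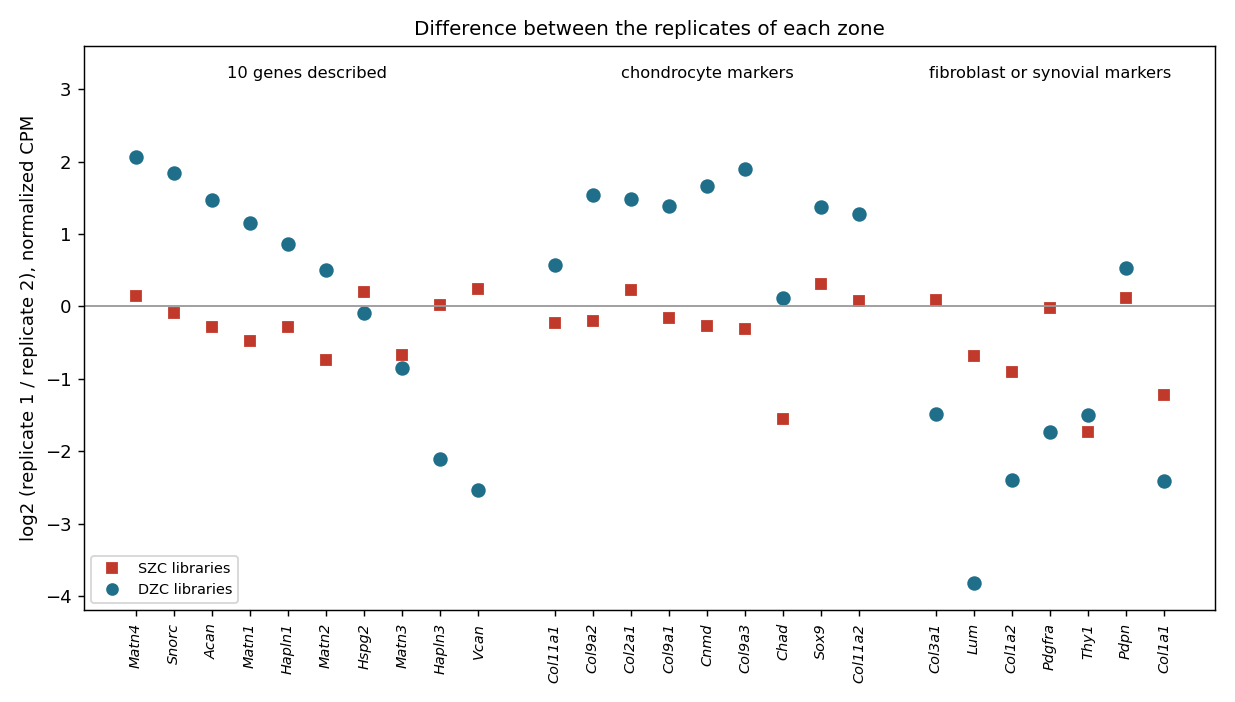
Log2 ratio of replicate 1 to replicate 2 in normalized CPM (vertical axis) for the 10 genes, 9 chondrocyte markers and 7 fibroblast or synovial markers, with SZC libraries as red squares and DZC libraries as blue circles. In DZCs the 10 genes run from 2.07 (*Matn4*) to -2.53 (*Vcan*), the chondrocyte markers all lie above 0, and the fibroblast or synovial markers lie below 0 but for *Pdpn*.

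The composition of the network relative to *Acan* was examined within each library, which does not depend on scaling between libraries. The log2 ratio of *Hapln1* to *Acan* counts was -2.99 in both SZC libraries, between which each gene was only 1.22-fold apart. DZCs gave -3.70 and -3.10. The log2 ratio of *Vcan* to *Acan* was -3.60 and -4.13 in SZCs and -10.51 and -6.51 in DZCs, the widest shift among the 9 ratios, with a difference of zone means of 4.64 (2.64 without DZC replicate 1 and 6.65 without DZC replicate 2). That of *Matn1* to *Acan* was -10.82 and -10.62 in SZCs and -12.01 and -11.69 in DZCs, a difference of 1.13. *Matn1* and *Matn3* moved in opposite directions on this scale, since the ratio of *Matn3* to *Acan* was -9.10 and -8.71 in SZCs and -8.44 and -6.13 in DZCs. *Matn4* to *Acan* was also higher in both SZC libraries, at -8.17 and -8.61 against -9.08 and -9.68. *Snorc* to *Acan* was lower in both SZC libraries, at -6.38 and -6.58 against -5.81 and -6.19, and so its rise in DZC replicate 1 exceeded that of *Acan*.

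In all, 6 of the 9 ratios to *Acan* did not overlap between the zones, where 16.1% of all genes tested had a ratio to *Acan* without overlap. Of these 6, 4 were higher in SZCs and 2 in DZCs, against 13.5% and 2.66% of all genes. The ratios of *Hapln3*, *Matn2* and *Hspg2* to *Acan* overlapped. For each ratio without overlap the two-sided p of an exact permutation test was 0.333, the smallest that 2 libraries against 2 allow, and 0.5 after Benjamini–Hochberg adjustment over the 9 ratios, so none could pass. For comparison, the log2 ratio of *Col2a1* to *Acan* was 1.29 and 0.78 in SZCs and 2.37 and 2.35 in DZCs, and was thus nearly equal in the DZC libraries although both genes were over 2-fold apart there.

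The partners of these proteins were examined as 7 lists. Of 76 distinct partner genes tested, 7 were called by edgeR's exact test, all higher in SZCs, where the shares over all genes were 2.93% in either direction and 2.23% higher in SZCs. The quasi-likelihood test of edgeR called 0 of these 7. The 7 include the transcription factors *Erg* and *Creb5*, which the study had already listed as higher in SZCs from the same libraries. The lists were written with earlier results of these data known, so this count is not an independent result. Of 12 fibril and microfibril partners of matrilins, 1 passed, *Dcn* (decorin, which binds collagen fibrils), at 1029 and 672 CPM in SZCs and 114 and 270 CPM in DZCs (log2 fold change 2.15, standard error 0.54, edgeR exact test FDR 0.00804). Its FDR was 0.427 without SZC replicate 1. The other 11 did not pass. Those of cartilage fibrils, such as *Col2a1* (log2 fold change -1.91, FDR 0.0658, and -0.98 without DZC replicate 1) and *Col11a1* (-1.13, FDR 0.206), had negative values in edgeR's test, and *Col2a1* passed in DESeq2 (FDR 0.01) and with another dispersion estimate (FDR 0.0131). The 3 collagen VI genes had values of 0.83 to 1.08. Of 6 partners of versican in fibrous matrix that were tested, *Fbn2*, a microfibril protein, passed, at 100 and 78.7 CPM in SZCs and 2.24 and 19.0 CPM in DZCs (log2 fold change 3.07, standard error 0.87, edgeR exact test FDR 0.0463). Like *Vcan*, *Fbn2* was lowest in DZC replicate 1. Its log2 fold change was 2.24 without DZC replicate 1 and 5.34 without DZC replicate 2. The call of *Fbn2* was lost without SZC replicate 1, and in edgeR's exact test with library totals (FDR 0.167) and with totals outside *Col2a1* (FDR 0.146). *Tnc* (tenascin C, a ligand of lecticans) was likewise lowest in DZC replicate 1, at 3998 and 5075 CPM in SZCs and 135 and 1568 CPM in DZCs, and did not pass (FDR 0.354).

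Of 13 basement membrane and perlecan partners, 2 passed, *Nid2* (a nidogen, log2 fold change 1.60, FDR 0.00587) and *Lama4* (a laminin chain, log2 fold change 1.46, FDR 0.0183, both by edgeR's exact test), and 12 of the 13 had a positive log2 fold change. Neither was called without SZC replicate 1 (FDR 0.477 and 1) or without SZC replicate 2 (FDR 0.59 and 0.366). *Hspg2* itself had a value of -0.29. Of 8 genes of hyaluronan synthesis, binding and turnover, 0 passed, and the receptor *Cd44* was at 114 and 206 CPM in SZCs and 23.9 and 123 CPM in DZCs (FDR 0.83, and 2.35e-08 without DZC replicate 2). Of 9 genes of aggrecan and versican cleavage, 0 passed. These include the aggrecanases *Adamts4* and *Adamts5* and their inhibitor *Timp3*, which was at 474 and 1075 CPM in SZCs and 1447 and 3360 CPM in DZCs (log2 fold change -1.63, FDR 0.196 by edgeR's exact test, and 0.000355 without DZC replicate 1). Of 7 cartilage transcription factors, *Erg* (log2 fold change 1.73, FDR 0.000769) and *Creb5* (4.61, FDR 3.78e-16) passed in edgeR's exact test. *Sox9*, the activator of *Acan* and *Col2a1*, had a value of -0.05 and, like *Acan*, was highest in DZC replicate 1 and lowest in DZC replicate 2, at 142 and 55.0 CPM. Without an SZC library most calls of the 6 called partners other than *Creb5* were lost. Fewer genes of the whole table were called then as well, and the spread in those fits came from the DZC libraries alone. With any library left out, the log2 fold changes of the 6 stayed positive, from 1.05 (*Slc26a2*, a sulfate transporter) to 5.34 (*Fbn2*).

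**Figure D4:**
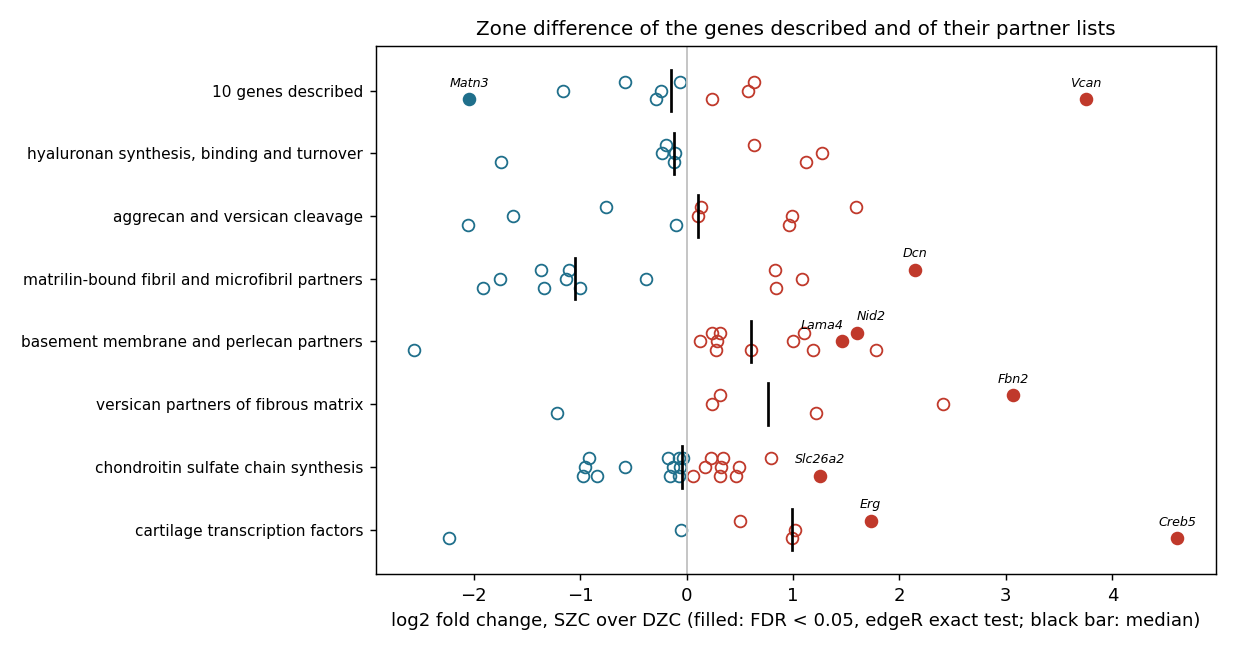
Log2 fold change of SZCs over DZCs (horizontal axis) of the 10 genes and of the tested genes of 7 partner lists, 1 row per list; red circles are positive, blue circles negative, filled circles have an FDR below 0.05 in edgeR's exact test, and black bars are list medians. The 7 partner genes called are all on the SZC side, and *Matn3* is the 1 filled circle on the DZC side.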

How the data were processed

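The authors aligned the reads with STAR 2.5.2b to the cow genome (Ensembl build UMD 3.1), counted them per gene without strand and deposited raw counts of 24596 genes in 4 RNA-Seq libraries. A deposited table of the authors' own comparison (log2 fold changes and FDR) served only to fill 8 blank gene names, none of them of the genes described. The 4 ATAC-Seq samples were not analysed here. Libraries were matched to zone and replicate number by column name. Replicates differed by more than sampling noise (chi-square per degree of freedom 65.7 for SZCs and 316 for DZCs), so all 4 were kept as separate samples.

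The counts went into edgeR 4.0.16 (R 4.3.3), with TMM scaling, gene-wise dispersions and the exact test, as in the study's methods, adjusted over all genes tested. The default filter of edgeR, which kept 12857 genes, was added here. Standard errors follow from the gene-wise dispersion, and 95% intervals from the standard errors. Alternatives were the quasi-likelihood test, also with the replicate number as a block, DESeq2 1.42.0, 2 other filters, 3 other scalings, another dispersion estimate and each library left out. The fits were tested on simulated data. The genes described and the partner lists were chosen with earlier results of these data known. Genes named are the 10 genes, from each list the called genes (at most 4) or, where none passed, the one with the highest mean CPM, not corrected for length, and the 3 genes nearest in pattern to *Acan*, *Vcan* and *Matn3*. *Col2a1*, *Col11a1*, *Sox9*, *Tnc*, *Mmp13*, *Csgalnact1*, *Ibsp*, *Acta2*, *Adamts4*, *Adamts5*, *Ncan*, *Bcan*, *Hapln2*, *Hapln4*, *Pdpn* and the overlapping genes were named after their values were seen.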

Additional observations from a re-analysis of the deposited data

How the results depend on the processing

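The number of genes called was 377, of which 287 were higher in SZCs and 90 in DZCs, and 2 of the 10 genes described were among them. The quasi-likelihood test of edgeR called 0 genes, 0 in either direction and 0 of the 10. It had 1126 genes and 2 of the 10 at an unadjusted p-value below 0.05. Because it uses the same counts and scaling, *Vcan* and *Matn3* had the same log2 fold changes, 3.75 and -2.04. Their FDRs in that test were 0.291 and 0.244. DESeq2 called 397 genes and 2 of the 10. With library totals, 44 genes were higher in DZCs and 1 of the 10 was called, *Vcan*. SZCs then held the higher level in 86.7% of calls against 76.1%, and the median over all genes rose by 0.30 on the log2 scale. Values of *Hapln1* (0.33), *Matn2* (0.12) and *Hspg2* (0.0046) were then positive, as was *Hapln1* (0.12) with totals outside *Col2a1*. Relative to the median gene, *Matn2* and *Hspg2* kept their sign. The cause of the changed calls was not tested.

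Same-numbered libraries share only a number in the labels, and their deviations from the zone means had a correlation of 0.42 across 12857 genes. A quasi-likelihood fit blocked on this number called 347 genes, 277 of them among the 377. *Vcan* (4.23, FDR 0.0227) and *Matn3* (-2.02, FDR 0.0132) passed in that test of edgeR, and *Hapln1* had a log2 fold change of 0.00072 with the block. Of 6 called partners other than *Creb5*, 2 passed with the block, and *Dcn* (FDR 0.062), *Nid2* (0.0811), *Lama4* (0.0976) and *Slc26a2* (0.062) did not, nor did the marker *Cnmd* (0.0793).

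With each library left out, the single library of a zone was assumed to vary like the other zone. The exact test then called 68 to 2768 genes, 62 to 1656 higher in SZCs and 6 to 1112 higher in DZCs, and 1 to 5 of the 10. The log2 fold change ranged from -1.11 to 0.34 for *Acan*, -0.40 to 0.44 for *Hapln1*, -0.11 to 2.02 for *Hapln3*, -0.65 to 0.08 for *Matn2*, -0.43 to 1.62 for *Matn4* and -1.78 to 0.05 for *Snorc*. *Vcan* (2.98 to 5.53), *Matn1* (0.19 to 1.32), *Matn3* (-2.42 to -1.54) and *Hspg2* (-0.39 to -0.19) kept their direction. The difference of log2 ratios to *Acan* ranged from -0.44 to 3.14 for *Hapln3*, -0.34 to 0.63 for *Matn2*, -0.67 to 0.90 for *Hspg2* and -2.77 to -0.46 for *Matn3*. With 2 libraries per zone, standard errors of 0.38 to 0.78 on the log2 scale limit what could be detected for the 10 genes.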

Other observations

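Chondroitin sulfate chains make up most of the mass of aggrecan, and the enzymes and transporters that build them were compared as a list of 23 genes, of which 22 were tested. One passed the exact test of edgeR, *Slc26a2*, the sulfate transporter of chondrocytes, at 83.3 and 108 CPM in SZCs and 42.6 and 37.8 CPM in DZCs (log2 fold change 1.25, standard error 0.35, FDR 0.0196). The median log2 fold change of the list was -0.04, equal to that of all genes tested. In TMM-scaled levels 21 of the 23 genes were, as was *Acan*, higher in DZC replicate 1 than in DZC replicate 2. The TMM factors were 0.735 for DZC replicate 1 and 1.08 for DZC replicate 2. In raw counts *Slc26a2* was lower in DZC replicate 1 (685 against 843) and *Csgalnact1* was higher (10625 against 3604), so the count of 21 depends on the scaling. *Csgalnact1*, which starts the chains, was at 661 and 162 CPM in DZCs against 384 and 368 CPM in SZCs. The call of *Slc26a2* was lost without SZC replicate 1 (log2 fold change 1.43) and without SZC replicate 2 (1.05), where fewer genes of the whole table were called. Over the 9 other alternatives its FDR ranged from 0.00782 to 0.252 in edgeR and DESeq2.

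Likeness of pattern was measured as the distance between log2(CPM + 1) values, centred on each gene's mean, over the 4 libraries. With so few libraries many genes can be alike, and 435 genes lay within 0.5 of *Acan*, against 1 for *Vcan* and 8 for *Matn3*. The nearest named genes to *Acan* were *Dlgap4* (distance 0.14) and *Sugct* (0.16). Nearest to *Vcan* were a gene listed only as ENSBTAG00000048157 (0.42), *Igsf10* (0.51) and *Abi3bp* (0.68), with DZC levels of 6.47 and 50.8, 1.87 and 9.64, and 0.809 and 13.6 CPM. Nearest to *Matn3* were *Usp53* (0.26), *Runx2* (0.28) and *Klhdc7a* (0.35). *Runx2*, a transcription factor of chondrocyte hypertrophy, was at 1.59 and 3.66 CPM in SZCs and 7.47 and 17.2 CPM in DZCs (FDR 0.0608, edgeR's exact test).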
